A study of Sus scrofa with 3 samples.

Results

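The liver of a Chinese wild boar was compared with that of a Large White pig, a European commercial breed, gene by gene. Both animals were male and were sampled at postnatal day 90, and the labels give neither a treatment nor an engineered allele. The comparison uses 2 of the 3 liver RNA libraries of the series, 1 library a side. The third library came from a male Enshi black pig, a Chinese local breed, of the same age, and its levels are given beside those of the other libraries. The labels name 3 pigs and say nothing of pooling. Each library is therefore taken as 1 animal, and breed, animal and library cannot be told apart. The members of the comparison were the gene IDs with at least 1 CPM in either library. CPM is a gene's read count divided by the library total, after scaling for composition with TMM factors, and set to a common depth. Of 25322 gene IDs, 12858 met this rule, and 8601 of them had a gene symbol. In the higher library, 163 IDs lay just inside the rule, between 1.0 and 1.1 CPM, and 172 lay just outside, between 0.9 and 1.0 CPM.

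The liver takes up nutrients from portal blood, stores glucose as glycogen, and exchanges glucose, ketone bodies and lipoproteins with the rest of the body. Its hepatocytes also make most plasma proteins, turn ammonia into urea, and oxidise or conjugate steroids, retinoids, drugs and odour compounds. Around the hepatocytes lie sinusoidal endothelial cells, Kupffer cells (the resident macrophages), stellate cells (which store retinoids and make collagen), bile duct cells and circulating leucocytes, and bulk RNA carries the transcripts of all of them. A domesticated pig and a wild boar belong to the same species, and the labels give no diet, fasting state, body weight or housing for either animal.

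The libraries held 20215871 gene counts for Chinese wild boar, 19982627 for Large White and 20654571 for Enshi black. At this depth 1 count was worth 0.0505 CPM, 0.0512 CPM and 0.0463 CPM. Reads that fell on no annotated feature made up 18.9%, 22.0% and 19.0% of assigned and unassigned reads in the same order, so the Large White library had the largest such share. The liver label was checked against marker genes: ALB, APOE, APOC3 and TF, genes of secreted hepatocyte proteins, were among the 10 genes with a symbol that took most counts, a rank that depends also on transcript length. Of the marker genes of other organs, the pancreatic lipase PNLIP had no count in any library and the muscle actin ACTA1 had 0 to 5 counts. The pancreatic enzyme CPA1 had 28 counts in Chinese wild boar, 45 in Large White and 0 in Enshi black. Many markers, such as CD163, VWF, COL1A1, KRT7 and KRT19, had no matched gene ID.

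With 1 library a side there is no test across animals. Each fold is the ratio of scaled counts with a 95% exact binomial interval in parentheses, which covers no error other than that of counting reads. The size rule was met by genes whose whole interval lay at least 2-fold above or below equality, and these genes are said to have passed. In Chinese wild boar 388 genes passed as higher, which is 3.02% of the genes compared, and 492 as lower, which is 3.83%. Both directions together made 6.84%. These shares are the background against which each group of genes is counted. The median log2 fold of all compared genes was 0.00 and 50.2% of them lay above 0. Of the compared genes, 5109 (39.7%) had an interval that stayed within 1.5-fold of equality.

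**Figure D1:**
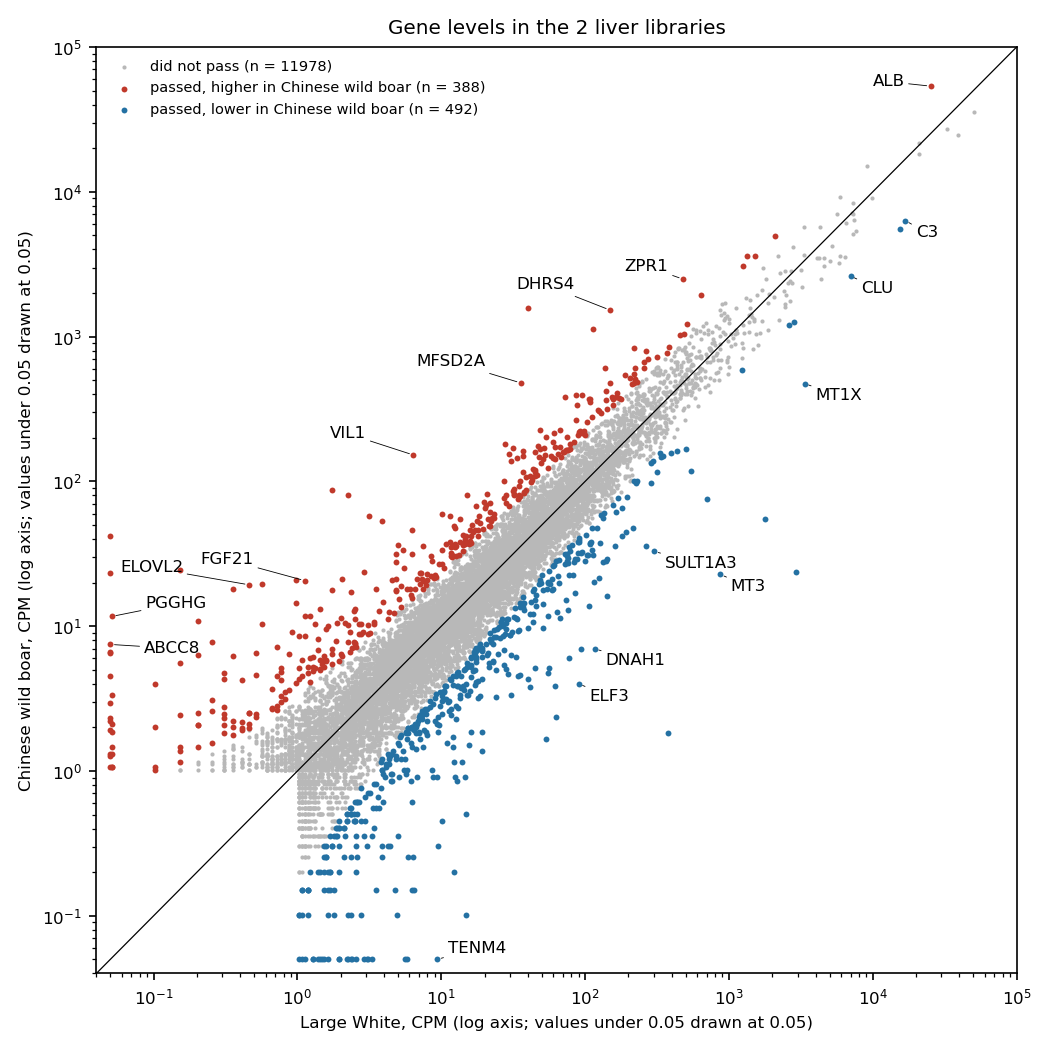
Level of each of the 12858 compared genes in the Large White library (x axis, CPM, log scale) and the Chinese wild boar library (y axis, CPM, log scale), 1 point a gene. Red points passed the size rule as higher in Chinese wild boar (388) and blue points as lower (492), and grey points did not pass. Most points follow the line of equal level, ALB lies highest among the red points, and C3, CLU, MT1X and MT3 lie below the line.

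The plot of gene levels shows how the passing genes were spread over abundance. Among genes of 100 to 1000 CPM on average over both libraries, 6.50% passed higher and 2.27% lower, while among genes under 2 CPM 3.22% passed higher and 6.49% lower. The median fold of the passing genes was 3.33 for the higher and 3.85 for the lower ones. A bound at least 4-fold away was reached by 87 higher and 114 lower genes, and a bound at least 10-fold away by 30 and 29. Of the higher genes, 13 had no count in Large White and 18 had 1 to 3 counts; of the lower genes, 12 were without a count in Chinese wild boar and 36 had 1 to 3. At the edge of the size rule, UDP-glucose dehydrogenase UGDH passed at 2.12-fold (2.01 to 2.24) higher, and the ER peroxiredoxin PRDX4, at a ratio of 2.13 (1.99 to 2.29), did not.

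The genes whose bounds lay farthest from equality were mostly genes of low or moderate level. MFSD2A, which carries lysophosphatidylcholine with long-chain polyunsaturated fatty acids into cells, had 478 CPM in Chinese wild boar, 35.7 in Large White and 93.4 in Enshi black, and was 13.4-fold (12.4 to 14.5) higher. ELOVL2, an elongase of such fatty acids, had 19.3 CPM in Chinese wild boar, 0.461 in Large White and 10.3 in Enshi black. VIL1, which bundles actin in microvilli, had 152 CPM in Chinese wild boar, 6.4 in Large White and 35.5 in Enshi black. In all 3 genes the Enshi black level lay between the others. PGGHG, a glucosidase that acts on the sugars of collagen, had 231 counts in Chinese wild boar, 1 in Large White and 217 in Enshi black, so that Large White alone was near zero. ABCC8, a subunit of potassium channels, had 148 counts in Chinese wild boar, 0 in Large White and 0 in Enshi black, and so was near zero in both domestic breeds.

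Several leading higher genes are best known from tissues other than liver. GABRQ, a GABA receptor subunit, had 42 counts in Chinese wild boar, 1 in Large White and 263 in Enshi black, so that Enshi black held most of its counts. GTSF1, a germ cell factor of transposon silencing, had 110 counts in Chinese wild boar, 3 in Large White and 79 in Enshi black, and MAP6, a microtubule stabiliser, had 79 counts in Chinese wild boar, 2 in Large White and 1 in Enshi black. STYK1, a kinase-like membrane protein, had 66 counts in Chinese wild boar, 1 in Large White and 7 in Enshi black, and MCOLN2, a cation channel of endosomes, 123 counts in Chinese wild boar, 7 in Large White and 35 in Enshi black. LPO, lactoperoxidase, had 21.1 CPM in Chinese wild boar, 2.05 in Large White and 7.14 in Enshi black, and was 10.3-fold (7.43 to 14.6) higher.

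Among the leading lower genes, TENM4, LUZP2, SLC34A2 and IL20RA were without a read in Chinese wild boar. Taken against a floor of 3 counts per library, TENM4, a teneurin of neuronal contacts, was at least 61.8-fold lower, with 0 counts in Chinese wild boar, 183 in Large White and 20 in Enshi black. The phosphate carrier SLC34A2 was at least 21.6-fold lower and had no count in Enshi black either. IL20RA, a receptor of the interleukin 20 family, was at least 12.8-fold lower. ELF3, a transcription factor of epithelia, had 3.99 CPM in Chinese wild boar, 90.3 in Large White and 15.9 in Enshi black, and DEFB1, a beta-defensin of epithelia, had 6.01 CPM in Chinese wild boar, 76.7 in Large White and 13.3 in Enshi black, which is 12.7-fold (10.6 to 15.5) lower. AOC1, the diamine oxidase that breaks down histamine, had 3 counts in Chinese wild boar, 123 in Large White and 18 in Enshi black. PIDD1, a scaffold of caspase 2 activation, had 6.97 CPM in Chinese wild boar, 94.3 in Large White and 5.47 in Enshi black, so that the Large White library stood above the other libraries. LPAR2, a lysophosphatidic acid receptor, had 6 counts in Chinese wild boar, 186 in Large White and 39 in Enshi black, and PON3, a lactonase carried on high-density lipoprotein, had 5.1 CPM in Chinese wild boar, 56.2 in Large White and 54.8 in Enshi black. For PON3 it was the Chinese wild boar library that stood apart, 11-fold (8.97 to 13.6) lower than Large White.

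In terms of the amount of RNA, a few genes carried much of the difference: the 10 genes with the largest difference in CPM made up 28.3% of the summed absolute difference over all compared genes. Albumin (ALB) came first, with 53648 CPM in Chinese wild boar, 25310.1 in Large White and 66508 in Enshi black, which is 2.12-fold (2.11 to 2.13) higher. Apolipoprotein APOE was lower by more CPM than any other gene with a symbol, with 24810.4 CPM in Chinese wild boar, 39379 in Large White and 14669.8 in Enshi black, but at a ratio of 0.63 (0.628 to 0.632) it did not pass the size rule, and neither did the fetuin gene AHSG, with 15141 CPM in Chinese wild boar, 9099 in Large White and 13744 in Enshi black. Among the genes with a symbol that passed, complement component C3 was the largest on the lower side, with 6329 CPM in Chinese wild boar, 16809 in Large White and 17267 in Enshi black, or 2.66-fold (2.64 to 2.67) lower. In the same set the mitochondrial genes ND1 and ND2 followed ALB on the higher side, and between them ZPR1, a zinc finger protein that binds translation factors, with 2492 CPM in Chinese wild boar, 479 in Large White and 256 in Enshi black. ZPR1 lies next to the apolipoprotein gene APOA5 in RefSeq's annotation of Sscrofa11.1, a newer assembly than the one the counts were made on, and how reads between such neighbours were assigned is not given. DHRS4, a retinol and carbonyl reductase that belongs to a family of near copies, had 1524 CPM in Chinese wild boar, 149 in Large White and 119 in Enshi black. RACK1, a scaffold on the ribosome, had 726 CPM in Chinese wild boar, 318 in Large White and 625 in Enshi black. Lower genes of this kind included clusterin (CLU), with 2618 CPM in Chinese wild boar, 6999 in Large White and 1912 in Enshi black, and the mRNA cap hydrolase DCPS, with 149.6 CPM in Chinese wild boar, 348 in Large White and 59 in Enshi black. CSRP1, a LIM domain protein of smooth muscle, had 148 CPM in Chinese wild boar, 336 in Large White and 132 in Enshi black.

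**Figure D2:**
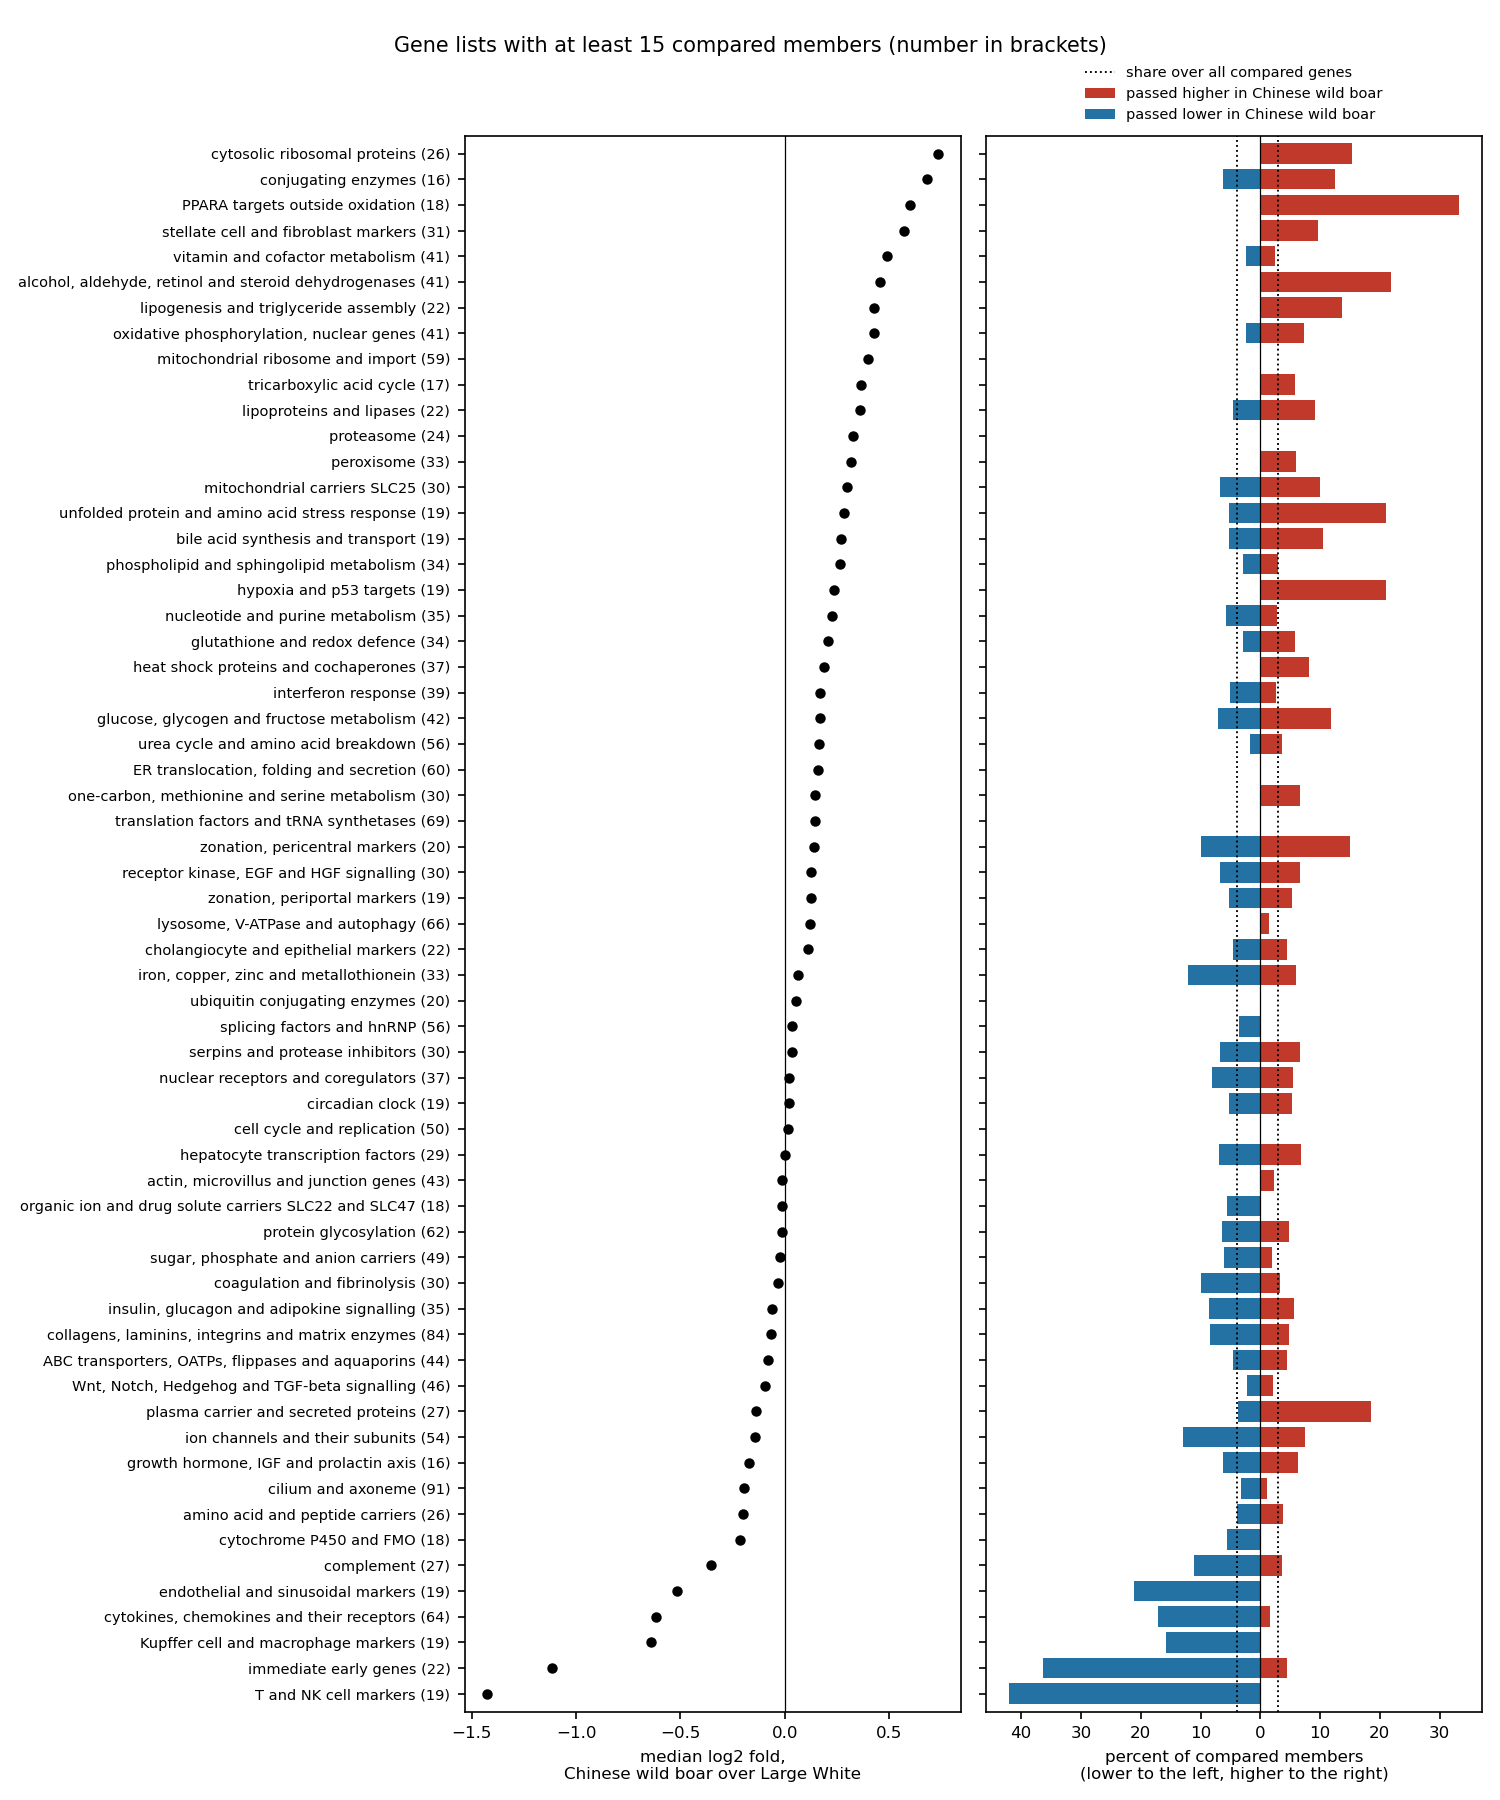
Gene lists with at least 15 compared members (number in brackets), ordered by the median log2 fold of their members, Chinese wild boar over Large White (left). Bars on the right give the percent of members that passed the size rule as lower (blue, to the left) or higher (red, to the right), and dotted lines give the shares over all compared genes, 3.83% and 3.02%. PPARA targets and dehydrogenases have the longest red bars, and T and NK cell markers and immediate early genes the longest blue bars.

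Gene lists were written for the functions of the liver, and 2051 of the compared genes with a symbol fell in at least 1 of them. The lists overlap, their members can vary together, and each is described by its counts beside the background shares and by its median. The plot of gene lists orders the larger ones by median.

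PPARA, the receptor that fatty acids activate in the fasted liver, has targets in lipid storage, hormone release and fuel choice besides its oxidation genes. Of 18 such targets compared, 6 passed higher (33.3%) and 0 lower, with a median log2 fold of 0.60. The hormone FGF21 had 20.6 CPM in Chinese wild boar, 1.13 in Large White and 2.78 in Enshi black. G0S2, an inhibitor of triglyceride lipase, had 144 CPM in Chinese wild boar, 33.6 in Large White and 39.8 in Enshi black, and CIDEC, which enlarges lipid droplets, had 25.3 CPM in Chinese wild boar, 5.53 in Large White and 7.04 in Enshi black. For all 3 genes the Chinese wild boar library was highest, and Enshi black lay nearer to Large White. RETSAT, a retinol saturase, had 176 CPM in Chinese wild boar, 47.1 in Large White and 111 in Enshi black, and was 3.73-fold (3.47 to 4.02) higher. PDK4, the kinase that shuts pyruvate out of the citric acid cycle, had 166 CPM in Chinese wild boar, 75.9 in Large White and 27.8 in Enshi black, and was 2.18-fold (2.05 to 2.32) higher. SLC27A2, a fatty acid transporter and acyl-CoA synthetase, was the sixth that passed.

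Lipid lists outside oxidation and cholesterol had medians above 0, with few genes past the rule. Of 22 lipogenesis and triglyceride genes, 3 passed higher (13.6%, against 3.02% of all compared genes) and none lower (median 0.43). They were ELOVL2 and the fatty acid desaturases FADS1, with 394 CPM in Chinese wild boar, 94.7 in Large White and 556 in Enshi black, and FADS2, with 215 CPM in Chinese wild boar, 61.2 in Large White and 287 in Enshi black; for both desaturases Large White was lowest and Enshi black highest. Of 33 peroxisome genes, 2 passed higher: ABCD3, which imports fatty acyl-CoA, with 143 CPM in Chinese wild boar, 51.2 in Large White and 55.3 in Enshi black, and CROT, which exports shortened chains as carnitine esters, with 297 CPM in Chinese wild boar, 129.6 in Large White and 91.3 in Enshi black. The list of 22 lipoprotein and lipase genes (median 0.36) had LIPG and PON1 past the rule as higher and PON3 as lower. Its summed level was lower, at 52294 CPM in Chinese wild boar, 64819 in Large White and 29060 in Enshi black. LIPG, the endothelial lipase that acts on high-density lipoprotein, had 159 CPM in Chinese wild boar, 44.9 in Large White and 81.3 in Enshi black, and PON1, the paraoxonase on the same particle, had 135 CPM in Chinese wild boar, 49.3 in Large White and 115 in Enshi black. PON1 was thus 2.73-fold (2.54 to 2.95) higher while its relative PON3 was lower. APOE, among the most abundant genes, had 24810.4 CPM in Chinese wild boar, 39379 in Large White and 14669.8 in Enshi black, and did not pass. The list of 34 phospholipid and sphingolipid genes had ENPP6, a choline phosphodiesterase, higher and UGCG, the glucosylceramide synthase, lower. These shares, 2.94% each, lie below the 3.02% and 3.83% of all compared genes. ENPP6 had 198 counts in Chinese wild boar and 32 in Large White, and UGCG 76 counts in Chinese wild boar and 206 in Large White.

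Genes of bile acid synthesis and its feedback differed in direction from each other. Of 19 genes compared, 2 passed higher and 1 lower (median 0.27). CYP7A1, the rate-limiting enzyme, had 20.3 CPM in Chinese wild boar, 116 in Large White and 71.8 in Enshi black. NR0B2, a repressor of CYP7A1, had 82.1 CPM in Chinese wild boar, 20.8 in Large White and 45.1 in Enshi black, and KLB, the coreceptor for the FGF hormones that repress it from the gut, had 32.2 CPM in Chinese wild boar, 11.6 in Large White and 96.6 in Enshi black. The Chinese wild boar library thus had the lowest CYP7A1 and the highest NR0B2 of the 3 libraries, while KLB was highest in Enshi black.

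Glucose genes were split. Of 42 genes of glucose, glycogen and fructose metabolism, 5 passed higher and 3 lower (median 0.17). PFKFB3, which makes the activator of phosphofructokinase, had 5.16 CPM in Chinese wild boar, 44.9 in Large White and 74 in Enshi black. HK3, a hexokinase of leucocytes, had 15.1 CPM in Chinese wild boar, 44.6 in Large White and 18.3 in Enshi black, and was 2.95-fold (2.58 to 3.38) lower. PFKFB3 was lowest in Chinese wild boar and highest in Enshi black, and for HK3 Enshi black stood with Chinese wild boar. On the higher side, pyruvate carboxylase (PC), which feeds gluconeogenesis, had 1029 CPM in Chinese wild boar, 455 in Large White and 495 in Enshi black, and FBP2, the muscle type of fructose bisphosphatase, had 6.12 CPM in Chinese wild boar, 1.28 in Large White and 8.06 in Enshi black. LDHA and PDK4 also passed higher, and PGGHG, listed here as a glycosidase, acts on collagen rather than on glycogen. None of 10 pentose phosphate and NADPH genes passed (median 0.28), and transketolase (TKT) had 485 CPM in Chinese wild boar, 389 in Large White and 280.1 in Enshi black.

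Nuclear genes of the mitochondrion lay mostly a little above equality, with few past the size rule. Of 41 nuclear genes of oxidative phosphorylation, 39 lay above 0 on the log2 scale (median 0.43), 3 passed higher and 1 lower. The higher ones were subunits of complexes III and IV: COX7A2 had 55.4 and 21.1 CPM in Chinese wild boar and Large White, UQCRC2 56.3 and 22.4 CPM, and UQCR11 25.3 and 10.4 CPM. The lower one was NDUFA6 of complex I, at 1.01 and 3.89 CPM. Of 17 citric acid cycle genes 16 lay above 0 (median 0.37), and SUCLG1, a subunit of succinyl-CoA ligase, alone passed, with 603 CPM in Chinese wild boar, 258 in Large White and 301 in Enshi black. None of 59 genes of the mitochondrial ribosome and protein import passed, although 49 lay above 0 (median 0.40). Across all compared genes, by comparison, 50.2% lay above 0.

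Of 13 genes on the mitochondrial genome, 3 passed higher and 1 lower (median 0.32). The higher ones were the complex I subunits ND1, with 3601 CPM in Chinese wild boar, 1327 in Large White and 1341 in Enshi black, ND2, with 3067 CPM in Chinese wild boar, 1253 in Large White and 728 in Enshi black, and ND6, with 153 CPM in Chinese wild boar, 52.3 in Large White and 105 in Enshi black. The abundant oxidase subunits COX1 and COX3 had ratios of 1.55 (1.54 to 1.56) and 1.14 (1.13 to 1.15) and did not pass. ATP8, with 6.12 CPM in Chinese wild boar, 33 in Large White and 8.9 in Enshi black, was lower, but this gene overlaps ATP6, and ND6 lies on the other strand from its neighbours, so both values depend on how overlap and strand were handled in the counting. Among 30 SLC25 carriers of the inner membrane, 3 passed higher and 2 lower. The higher ones included SLC25A20 (acylcarnitine), with 53.4 CPM in Chinese wild boar, 17.7 in Large White and 39.5 in Enshi black, and SLC25A1 (citrate), with 336 CPM in Chinese wild boar, 157 in Large White and 125 in Enshi black. The uncoupling protein UCP2, with 8.24 CPM in Chinese wild boar, 25.5 in Large White and 14.9 in Enshi black, and SLC25A35, with 19 counts in Chinese wild boar and 89 in Large White, passed lower.

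Few genes of amino acid catabolism passed. Of 56 genes of the urea cycle and amino acid breakdown, 2 passed higher and 1 lower (median 0.16). These shares, 3.57% and 1.79%, lie near or below the 3.02% and 3.83% of all compared genes. Glutamate dehydrogenase (GLUD1), which releases ammonia from glutamate, had 1046 CPM in Chinese wild boar, 487 in Large White and 1186 in Enshi black. GPT2, the mitochondrial alanine aminotransferase, had 58.3 CPM in Chinese wild boar, 129 in Large White and 31.6 in Enshi black, which is 2.21-fold (2.06 to 2.37) lower. Among 30 one-carbon, methionine and serine genes, 2 passed higher, and both belong to serine synthesis from glycolysis. PHGDH, its first enzyme, had 109 CPM in Chinese wild boar, 41.2 in Large White and 72.1 in Enshi black, or 2.65-fold (2.44 to 2.88) higher, and PSPH, its last, had 8.95 CPM in Chinese wild boar, 3.17 in Large White and 11.6 in Enshi black, or 2.82-fold (2.1 to 3.83) higher. Of 35 nucleotide genes, ATIC, which closes the purine ring, passed higher at 2.29-fold (2.04 to 2.58). AMPD3, an AMP deaminase, had 5.21 CPM in Chinese wild boar, 21.5 in Large White and 9.45 in Enshi black, and adenosine deaminase (ADA) 3.99 CPM in Chinese wild boar, 14.9 in Large White and 1.9 in Enshi black, and both passed lower.

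Redox and cofactor genes had medians above 0 and single genes past the rule. Of 34 redox genes (median 0.21), peroxiredoxin PRDX1, with 209.8 CPM in Chinese wild boar, 89.2 in Large White and 168 in Enshi black, and glutathione reductase (GSR), with 42 CPM in Chinese wild boar, 18 in Large White and 27.2 in Enshi black, passed higher. SOD3, the extracellular superoxide dismutase, passed lower, with 10.7 CPM in Chinese wild boar, 43.3 in Large White and 19.9 in Enshi black. Of 41 vitamin and cofactor genes 32 lay above 0 (median 0.49). In this list 1 passed higher and 1 lower, 2.44% each, below the 3.02% and 3.83% of all compared genes. PANK1, which starts coenzyme A synthesis, had 83.4 CPM in Chinese wild boar, 37.9 in Large White and 70.2 in Enshi black, and passed just inside the rule at 2.2-fold (2.02 to 2.41) higher. ACMSD, which steers tryptophan away from NAD synthesis, had 4.19 CPM in Chinese wild boar, 18 in Large White and 6.39 in Enshi black, or 4.28-fold (3.36 to 5.51) lower.

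Alcohol, aldehyde, retinol and steroid dehydrogenases held the most passing genes of the metabolic lists described here. Of 41 compared, 9 passed higher (22%) and none lower (median 0.46). They act on different substrates: DHRS4 and RETSAT on retinoids, HSD17B10 on branched-chain acyl-CoA and steroids, HSD17B7 in cholesterol synthesis, ALDH18A1 in proline synthesis and ALDH5A1 on succinic semialdehyde. The others were ADH4, an alcohol dehydrogenase that also oxidises retinol, the aldehyde reductase AKR7A2, and DHRS7C. HSD17B10 had 338 CPM in Chinese wild boar, 88 in Large White and 266 in Enshi black, or 3.84-fold (3.64 to 4.05) higher, and ALDH18A1 had 80.5 CPM in Chinese wild boar, 15.1 in Large White and 84.9 in Enshi black, or 5.33-fold (4.71 to 6.06) higher. DHRS7C, a dehydrogenase known from muscle, had 58 counts in Chinese wild boar, 0 in Large White and 3 in Enshi black. For HSD17B10 and ALDH18A1 Large White alone was low, whereas for DHRS4 Chinese wild boar alone was high.

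The lists of cytochrome P450 and of conjugating genes did not share a direction. Of 18 P450 and flavin monooxygenase genes, FMO5 alone passed, lower, with 157 CPM in Chinese wild boar, 396 in Large White and 716 in Enshi black (list median -0.22). Of 16 conjugating enzymes 14 lay above 0 (median 0.68), and 2 passed higher and 1 lower. INMT, which methylates indole amines, had 664 CPM in Chinese wild boar, 257 in Large White and 235 in Enshi black, or 2.59-fold (2.5 to 2.67) higher, and the glutathione transferase GSTO2 had 91 counts in Chinese wild boar, 10 in Large White and 3 in Enshi black. The sulfotransferase annotated as SULT1A3 had 32.8 CPM in Chinese wild boar, 302 in Large White and 20.4 in Enshi black, or 9.21-fold lower, with a nearest bound of 8.49. It belongs to a family of near copies. Enshi black stood with Large White for INMT and with Chinese wild boar for SULT1A3.

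**Figure D3:**
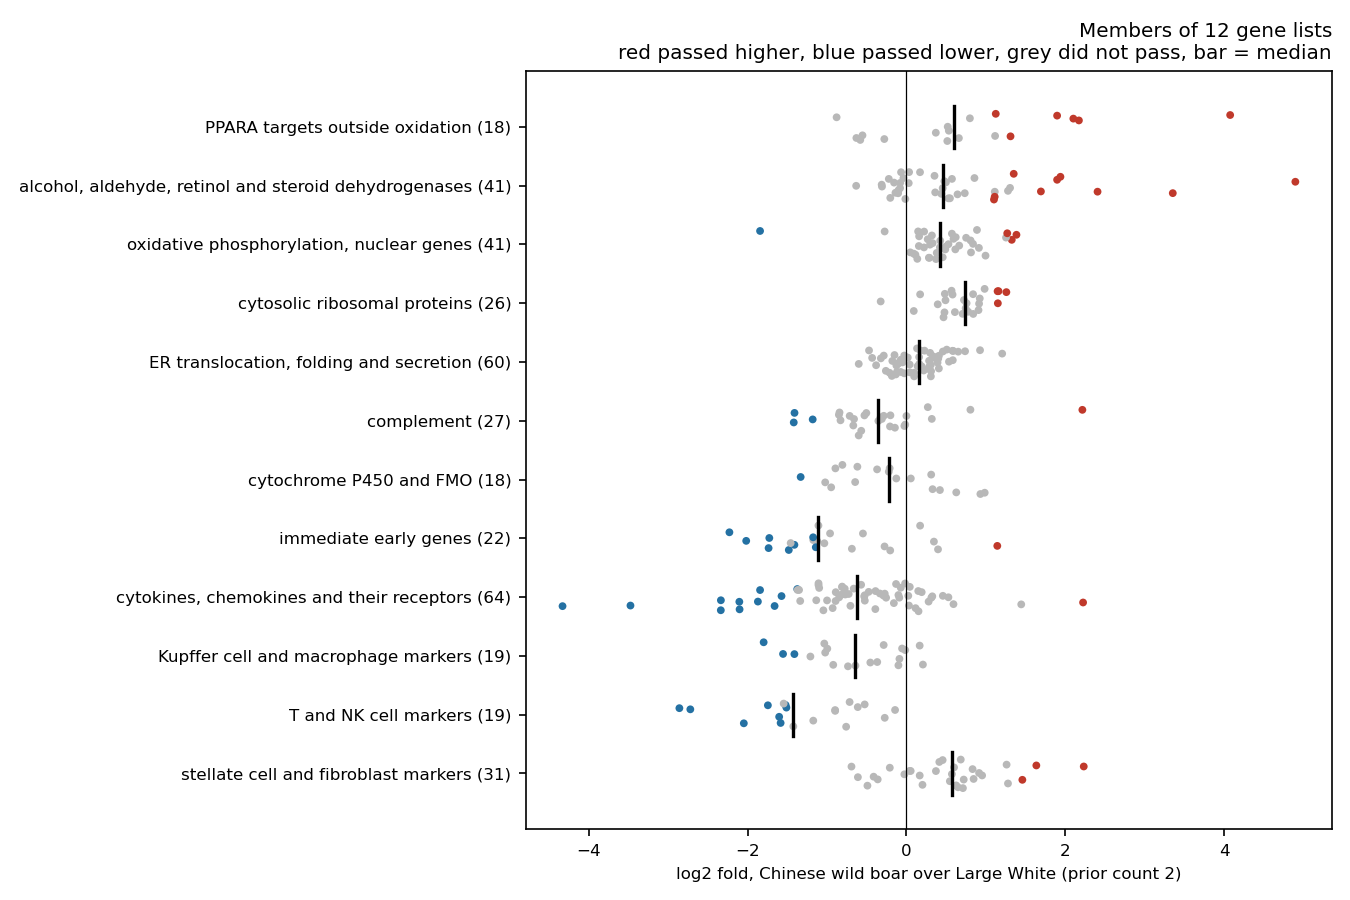
Log2 fold, Chinese wild boar over Large White (x axis, prior count 2), of every compared member of 12 gene lists (number in brackets), 1 point a gene. Red points passed the size rule as higher, blue as lower, grey did not pass, and the black bar is the list's median. Dehydrogenases and PPARA targets have red points only among those that passed, while immediate early genes, cytokines and T and NK cell markers reach far to the left, and no member of the ER list passed.

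Regulators of liver transcription showed a few passing genes in each direction. Of 37 nuclear receptors and coregulators, NR0B2 and RORA passed higher, and PPARD, NR4A3 and PPARGC1B lower (median 0.02). PPARD, the receptor related to PPARA that is active in many tissues, had 33.6 CPM in Chinese wild boar, 112 in Large White and 55.4 in Enshi black, or 3.34-fold (3.06 to 3.65) lower. The coactivator PPARGC1B had 48 counts in Chinese wild boar, 144 in Large White and 39 in Enshi black, and RORA, an activator of clock genes, 44.5 CPM in Chinese wild boar, 16.5 in Large White and 25.6 in Enshi black. Of 29 hepatocyte transcription factors 2 passed higher and 2 lower. ATF5, a factor of the amino acid and mitochondrial stress responses, had 1218 CPM in Chinese wild boar, 511 in Large White and 570.1 in Enshi black, or 2.38-fold (2.33 to 2.44) higher, and KLF9, a target of glucocorticoids and thyroid hormone, had 147 CPM in Chinese wild boar, 68.2 in Large White and 41.4 in Enshi black, or 2.15-fold (2.02 to 2.3) higher. TCF7L2, the nuclear partner of beta-catenin, had 28.1 CPM in Chinese wild boar, 62.2 in Large White and 25.9 in Enshi black, and passed lower just inside the rule. Among 19 clock genes, RORA and NOCT, a nocturnin that removes a phosphate from NADPH, were the ones that passed; NOCT had 13.3 CPM in Chinese wild boar, 32.5 in Large White and 36.9 in Enshi black, or 2.45-fold (2.12 to 2.84) lower. The hour of sampling is not given in the labels.

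Markers of the zones of the liver lobule gave no common direction. Of 20 markers of the zone around the central vein, CA3, LECT2 and PON1 passed higher and CYP7A1 and TCF7L2 lower (median 0.14). CA3, a carbonic anhydrase of muscle and fat that liver also makes, had 46.2 CPM in Chinese wild boar, 6.24 in Large White and 8.76 in Enshi black, or 7.4-fold (6.12 to 9.01) higher. LECT2, a secreted chemotactic protein, had 607 CPM in Chinese wild boar, 224 in Large White and 413 in Enshi black, or 2.71-fold (2.62 to 2.81) higher. Of 19 markers of the zone around the portal vein, ALB passed higher and CRP lower (median 0.12).

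Endocrine genes included a few large differences in receptors and binding proteins. In the growth hormone, IGF and prolactin list of 16 genes, IGFBP1, the binding protein that insulin represses, had 118 CPM in Chinese wild boar, 544 in Large White and 17.3 in Enshi black, or 4.62-fold (4.41 to 4.83) lower. The prolactin receptor PRLR had 5.86 CPM in Chinese wild boar, 1.59 in Large White and 8.02 in Enshi black. Of 35 insulin, glucagon and adipokine genes, 2 passed higher and 3 lower (median -0.06). The leptin receptor LEPR had 13.1 CPM in Chinese wild boar, 2.51 in Large White and 131 in Enshi black, so Large White was lowest and Enshi black far above both. INHBE, an inhibin chain that hepatocytes secrete, had 85.8 CPM in Chinese wild boar, 31.3 in Large White and 53.3 in Enshi black, or 2.74-fold (2.5 to 3.01) higher. IRS1, the adaptor of the insulin receptor, had 26.8 CPM in Chinese wild boar, 72.6 in Large White and 23.6 in Enshi black, or 2.71-fold (2.45 to 3.0) lower, and PDE4B, which breaks down cyclic AMP, had 3.29 CPM in Chinese wild boar, 18.5 in Large White and 7.23 in Enshi black, or 5.64-fold (4.32 to 7.46) lower. FNDC5, the precursor of irisin, had 9.8 CPM in Chinese wild boar, 25.3 in Large White and 7.92 in Enshi black. For IRS1 and FNDC5 the Enshi black level lay close to that of Chinese wild boar.

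**Figure D4:**
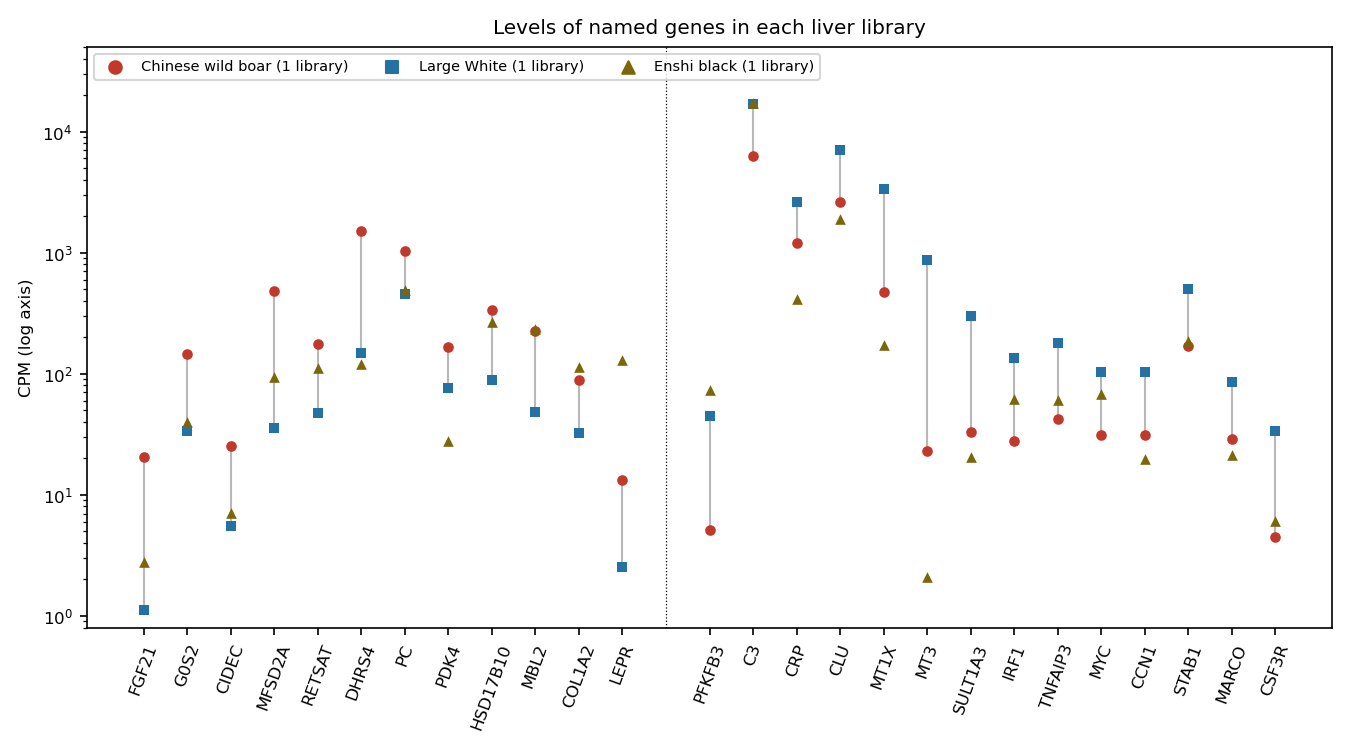
Level (y axis, CPM, log scale) of 26 named genes in each library: Chinese wild boar (circle), Large White (square) and Enshi black (triangle), 1 library each and no error bars. Genes left of the dotted line passed as higher in Chinese wild boar than in Large White, and genes right of it as lower. Enshi black lies near Large White for some genes (FGF21, PC, C3) and near Chinese wild boar for others (MBL2, STAB1, CSF3R).

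Plasma proteins made by hepatocytes differed gene by gene. Of 27 carriers and secreted proteins, 5 passed higher and 1 lower, with a median log2 fold of -0.14, so the median member lay below equality while most of those that passed were higher. Besides ALB and LECT2 the higher ones were FETUB, an inhibitor of metalloproteases, with 514 CPM in Chinese wild boar, 205 in Large White and 361 in Enshi black, PGLYRP2, an amidase of bacterial peptidoglycan, with 146 CPM in Chinese wild boar, 59.7 in Large White and 69.5 in Enshi black, and AFP. AFP, the fetal albumin, had 95 counts in Chinese wild boar, 15 in Large White and 15 in Enshi black, or 6.25-fold (3.61 to 11.6) higher. Transferrin (TF) and hemopexin (HPX), which carry iron and haem, had ratios of 0.863 (0.859 to 0.867) and 1.0 (0.995 to 1.01). The level plot shows that CLU, the 1 lower member, was highest in Large White.

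Acute phase and complement genes leaned lower in Chinese wild boar. Of 11 acute phase genes, CRP and STEAP4 passed lower and none higher (median -0.40). C-reactive protein (CRP) had 1196 CPM in Chinese wild boar, 2632 in Large White and 417 in Enshi black, or 2.2-fold (2.17 to 2.23) lower, and STEAP4, a metalloreductase, had 14.6 CPM in Chinese wild boar, 35.3 in Large White and 57.4 in Enshi black, or 2.42-fold (2.11 to 2.79) lower. Of 27 complement genes only 5 lay above 0 (median -0.35), and 3 passed lower. They were C3, CLU, which regulates the terminal complement complex, and the ficolin FCN2, with 101 CPM in Chinese wild boar, 229.9 in Large White and 289 in Enshi black. MBL2, the mannose-binding lectin that starts the same pathway as FCN2, went the other way with 225 CPM in Chinese wild boar, 48.4 in Large White and 236 in Enshi black, or 4.65-fold (4.34 to 5.0) higher. Chinese wild boar alone had the low C3 and FCN2, and Large White alone had the low MBL2.

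Of 30 coagulation and fibrinolysis genes, 1 passed higher and 3 lower (median -0.03). PROCR, the endothelial receptor of protein C, had 9.15 CPM in Chinese wild boar, 2.3 in Large White and 2.18 in Enshi black. Factor VIII (F8), which liver endothelium makes, had 28.8 CPM in Chinese wild boar, 65.8 in Large White and 33.8 in Enshi black, or 2.28-fold (2.07 to 2.53) lower, and F13A1, the clot cross-linking transglutaminase found in macrophages and platelets, had 12 counts in Chinese wild boar, 122 in Large White and 35 in Enshi black. Plasminogen (PLG), the precursor of the protease that dissolves clots, had a ratio of 0.864 (0.858 to 0.871) and did not pass. Of 30 serpins and other protease inhibitors, 2 passed higher (SERPINB7 and WFDC1) and 2 lower. SPINK5, an inhibitor of epidermal proteases, had 1 count in Chinese wild boar, 46 in Large White and 59 in Enshi black, a ratio of Large White over Chinese wild boar of 46.6 (7.95 to 1879).

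Metal handling genes held some of the largest differences. Of 33 genes 2 passed higher and 4 lower (median 0.07). Metallothioneins bind zinc and copper, and their genes are near copies of each other, so reads may be split among them. MT1X had 474 CPM in Chinese wild boar, 3368 in Large White and 172 in Enshi black, or 7.11-fold (6.96 to 7.27) lower, and MT3 had 22.8 CPM in Chinese wild boar, 869 in Large White and 2.09 in Enshi black, or 38.1-fold (34.7 to 42) lower. Both were thus highest in Large White, and MT3 lies next to MT4 in RefSeq's annotation of Sscrofa11.1. SLC40A1, the iron exporter ferroportin, had 2.22 CPM in Chinese wild boar, 7.98 in Large White and 14.5 in Enshi black, or 3.59-fold (2.55 to 5.14) lower. ATOX1, the copper chaperone, had 116 CPM in Chinese wild boar, 37.1 in Large White and 47.3 in Enshi black, or 3.13-fold (2.88 to 3.41) higher, and BLVRA, which reduces biliverdin to bilirubin, had 109 CPM in Chinese wild boar, 44.8 in Large White and 55.2 in Enshi black, or 2.42-fold (2.24 to 2.62) higher.

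Transporters of the cell membrane and of organelles passed in small numbers in each direction. Of 44 ABC transporters, organic anion carriers, flippases and aquaporins, 2 passed higher (ABCC8 and ABCD3) and 2 lower (ABCB9 and ABCA9). Of 26 amino acid and peptide carriers, SLC7A9, a subunit of the cystine carrier, had 11.8 CPM in Chinese wild boar, 1.23 in Large White and 9.92 in Enshi black, or 9.59-fold (6.29 to 15.3) higher. The creatine carrier SLC6A8 had 24.2 CPM in Chinese wild boar, 56.1 in Large White and 34.5 in Enshi black, or 2.32-fold (2.08 to 2.59) lower. Of 49 sugar, phosphate and anion carriers, SLC26A8 passed higher, and SLC34A2, SLC37A2 and SLC2A6 lower. SLC37A2, a sugar phosphate exchanger, had 16.8 CPM in Chinese wild boar, 84.9 in Large White and 14.9 in Enshi black, or 5.04-fold (4.48 to 5.69) lower, and SLC2A6, a lysosomal sugar carrier, had 2.43 CPM in Chinese wild boar, 11.8 in Large White and 4.91 in Enshi black. In the list of 18 organic ion and monocarboxylate carriers, the lactate exporter SLC16A3 alone passed, with 24 counts in Chinese wild boar, 76 in Large White and 207 in Enshi black. Of 54 ion channel genes, 4 passed higher and 7 lower. Most had few counts: the chloride exchanger CLCN5 had 100 counts in Chinese wild boar and 28 in Large White, TRPM3 128 counts in Chinese wild boar and 39 in Large White, and the potassium channel KCNT2 20 counts in Chinese wild boar and 169 in Large White.

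Most lists of genes that make, fold and degrade proteins had few or no passing genes, but cytosolic ribosomal proteins had 4. No gene passed among 60 genes of ER translocation and folding (median 0.16), 24 proteasome genes (median 0.32), 20 ubiquitin genes (median 0.05) or 69 translation factors and tRNA synthetases (median 0.14). The ER chaperones HSP90B1 and CALR had ratios of 0.881 (0.866 to 0.895) and 0.863 (0.849 to 0.878). Of 66 lysosome and autophagy genes the cathepsin CTSL alone passed (1.52%), higher, with 59.8 CPM in Chinese wild boar, 23.1 in Large White and 60.7 in Enshi black. Of 26 cytosolic ribosomal protein genes 25 lay above 0 (median 0.74) and 4 passed higher: RPL14, RPS28, RPS23 and RPS27L. That is 15.4%, against 3.02% of all compared genes. RPL14 had 371 CPM in Chinese wild boar, 155 in Large White and 146 in Enshi black, and RPS23 379 CPM in Chinese wild boar, 171 in Large White and 38.9 in Enshi black, and these genes have many processed copies that can share reads. Of 56 splicing genes, RBM25, with 157 CPM in Chinese wild boar, 333 in Large White and 45.5 in Enshi black, and SNRPN, with 3.94 CPM in Chinese wild boar, 17.2 in Large White and 6.86 in Enshi black, passed lower. Their share, 3.57%, lies below the 3.83% of all compared genes that passed lower.

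Of 62 protein glycosylation genes 3 passed higher (4.84%) and 4 lower (6.45%), against 3.02% and 3.83% of all compared genes, and with an assumed variation between animals of 0.4 there were 0 and 1. PMM1, a phosphomannomutase, had 59.5 CPM in Chinese wild boar, 10.1 in Large White and 14.6 in Enshi black, or 5.88-fold (5.05 to 6.87) higher. MPDU1, needed to use mannose and glucose linked to dolichol, had 21 CPM in Chinese wild boar, 4.86 in Large White and 18.3 in Enshi black, or 4.32-fold (3.45 to 5.46) higher, and ALG14, which adds the second sugar of the dolichol-linked chain, had 12.4 CPM in Chinese wild boar, 4.71 in Large White and 5.7 in Enshi black, or 2.63-fold (2.06 to 3.38) higher. The lower ones were B3GNT5, B4GALT6, B4GALT5 and B3GALT2, which add sugars to the sugar chains of glycolipids and glycoproteins. B4GALT5 had 30.5 CPM in Chinese wild boar, 74.7 in Large White and 27.1 in Enshi black, or 2.45-fold (2.22 to 2.69) lower, and the other lower genes had 4 to 19 counts in Chinese wild boar.

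Stress programmes differed from each other. Of 19 genes of the unfolded protein and amino acid stress response, 4 passed higher (FGF21, PHGDH, ATF5 and PSPH) and ATF3 lower (median 0.29). The shares were 21.1% higher and 5.26% lower, against 3.02% and 3.83% of all compared genes. ATF3 had 10.6 CPM in Chinese wild boar, 28.2 in Large White and 15 in Enshi black, or 2.67-fold (2.28 to 3.15) lower. Of 37 heat shock genes and cochaperones, 3 passed higher (8.11%) and none lower (median 0.19). DNAJB1, a partner of the HSP70 chaperone, had 70.4 CPM in Chinese wild boar, 21.8 in Large White and 64.5 in Enshi black, or 3.23-fold (2.89 to 3.61) higher, and BAG3, which couples HSP70 to autophagy, had 385 CPM in Chinese wild boar, 155 in Large White and 189 in Enshi black, or 2.49-fold (2.39 to 2.6) higher. FKBP5, a cochaperone of the glucocorticoid receptor and a target of it, had 148 CPM in Chinese wild boar, 47.8 in Large White and 66.9 in Enshi black, or 3.09-fold (2.87 to 3.33) higher. For DNAJB1 Large White alone was low. Of 19 hypoxia and p53 targets, 4 passed higher (21.1%, against 3.02% of all compared genes) and none lower (median 0.24). All 4 belong to the p53 side: MDM2, the ubiquitin ligase of p53, the cyclin CCNG1, the nuclease AEN and the cell death gene BBC3. AEN had 72 CPM in Chinese wild boar, 19.9 in Large White and 47.1 in Enshi black, and CCNG1 57.3 CPM in Chinese wild boar, 18.4 in Large White and 60.7 in Enshi black, or 3.11-fold (2.76 to 3.51) higher. MDM2 had 18.2 CPM in Chinese wild boar, 7.42 in Large White and 20.2 in Enshi black, and BBC3 6.92 CPM in Chinese wild boar, 1.74 in Large White and 1.2 in Enshi black. MDM2 passed just inside the rule, at 2.45-fold (2.02 to 2.99) higher.

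Immediate early genes, which are induced within minutes of a stimulus, were mostly lower in Chinese wild boar. Of 22 compared, 8 passed lower (36.4%) and 1 higher, with 4 above 0 and a median of -1.12. The proto-oncogene MYC had 31.2 CPM in Chinese wild boar, 104 in Large White and 68.2 in Enshi black, or 3.34-fold (3.05 to 3.66) lower. CCN1, a matrix signal protein, had 31.2 CPM in Chinese wild boar, 103 in Large White and 19.7 in Enshi black, or 3.32-fold (3.03 to 3.64) lower, and IER3, a regulator of cell death, had 1.87 CPM in Chinese wild boar, 7.88 in Large White and 3.2 in Enshi black. The nuclear receptor NR4A3 had 9 counts in Chinese wild boar, 49 in Large White and 53 in Enshi black. EGR1 went the other way, with 159 CPM in Chinese wild boar, 71.8 in Large White and 29.7 in Enshi black, or 2.21-fold (2.08 to 2.36) higher. Enshi black had low CCN1 and EGR1 but MYC between the others, so no library was lowest in all of these genes.

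Genes of immune signalling were lower in Chinese wild boar more often than higher. Of 64 cytokines, chemokines and receptors, 11 passed lower (17.2%) and 1 higher, and 15 lay above 0 (median -0.62). Of the lower genes, CXCL2, CXCR3, IL10, IL20RA and TNFRSF4 had under 1 CPM in Chinese wild boar. These genes were compared only because of their Large White level. Among all compared genes under 2 CPM on average, 6.49% passed lower and 3.22% higher. With a wider interval than 95%, 4 genes of the cytokine list passed lower and 0 higher. TNFAIP3, the brake on NF-kappaB signalling, had 41.9 CPM in Chinese wild boar, 180.3 in Large White and 60.2 in Enshi black, or 4.3-fold (3.98 to 4.64) lower. The neutrophil attractant CXCL2 had 6 counts in Chinese wild boar, 86 in Large White and 19 in Enshi black, and the T cell ligand TNFSF14 had 3.59 CPM in Chinese wild boar, 15.8 in Large White and 5.56 in Enshi black. The 1 higher gene was IL1R2, the decoy receptor of interleukin 1, with 50 counts in Chinese wild boar, 9 in Large White and 5 in Enshi black. IL1R2 was compared only because of its Chinese wild boar level. Of 39 interferon response genes, MX1 passed higher, with 215 CPM in Chinese wild boar, 94.4 in Large White and 194 in Enshi black, and IRF1 and GBP2 lower (median 0.17). IRF1, a transcription factor induced by interferon gamma, had 27.5 CPM in Chinese wild boar, 134 in Large White and 62.1 in Enshi black, or 4.86-fold (4.43 to 5.34) lower, and GBP2, one of its targets, had 5.91 CPM in Chinese wild boar, 17.3 in Large White and 16.5 in Enshi black. For MX1 Large White alone was low, and for GBP2 Chinese wild boar alone was low. Of 13 antigen presentation genes only the peptide transporter TAP2 passed, higher, with 101 counts in Chinese wild boar, 26 in Large White and 123 in Enshi black (list median -0.29).

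Markers of leucocytes were mostly lower in Chinese wild boar as well. PTPRC, the pan-leucocyte surface phosphatase CD45, chosen after its values were seen, had 32 CPM in Chinese wild boar, 89.6 in Large White and 69.2 in Enshi black. Of 19 T and NK cell markers 8 passed lower and none higher, and their summed level was 154 CPM in Chinese wild boar, 331 in Large White and 272 in Enshi black. The granule protein GNLY had 18 CPM in Chinese wild boar, 54.1 in Large White and 23.8 in Enshi black, or 3.01-fold (2.67 to 3.4) lower, and the kinase LCK had 4.14 CPM in Chinese wild boar, 17.5 in Large White and 17.8 in Enshi black, or 4.21-fold (3.3 to 5.43) lower. In bulk tissue fewer cells of a type and less RNA per cell cannot be told apart, and the part of leucocyte content in the cytokine, interferon and immediate early counts was not tested. Of 3 B and plasma cell markers compared, 1 lay above 0 and 1 passed lower (median -0.18). Their summed level was 18.5 CPM in Chinese wild boar, 21.4 in Large White and 14.5 in Enshi black. The lower one was MZB1, a plasma cell chaperone, with 2.12 CPM in Chinese wild boar, 9.31 in Large White and 8.11 in Enshi black. MS4A1 and CD79B were below 1 CPM in both libraries, and CD79B had 17 counts in Chinese wild boar and 19 in Large White. Of 5 neutrophil markers, CSF3R, with 4.5 CPM in Chinese wild boar, 33.9 in Large White and 6.02 in Enshi black, and the protease MMP9, with 4 counts in Chinese wild boar, 30 in Large White and 7 in Enshi black, passed lower. MMP9 was compared only because of its Large White level, and 1 of the 5 markers lay above 0. The defining neutrophil marker S100A8 was below 1 CPM in both libraries, with 15 counts in Chinese wild boar and 12 in Large White. ITGB7, an integrin of homing lymphocytes in the matrix list, had 6.87 CPM in Chinese wild boar, 27.2 in Large White and 17 in Enshi black, or 3.96-fold (3.28 to 4.82) lower.

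Kupffer cell markers mostly lay below equality without passing. Of 19 compared, 2 lay above equality (CD68 and CLEC4F), and 3 passed lower and none higher (median -0.64), and their summed level was 2271 CPM against 2701 in Large White and 2235 in Enshi black. The scavenger receptor MARCO had 28.9 CPM in Chinese wild boar, 85.1 in Large White and 21.4 in Enshi black, or 2.94-fold (2.67 to 3.24) lower, and NCF1, a subunit of the phagocyte oxidase, had 8.14 CPM in Chinese wild boar, 21.8 in Large White and 9.13 in Enshi black, or 2.68-fold (2.23 to 3.23) lower. The defining markers C1QA and CD68 had 517 and 522 CPM and 70.7 and 61.2 CPM in Chinese wild boar and Large White, and the growth factor receptor CSF1R had 55.7 and 111 CPM. None of C1QA, CD68 and CSF1R passed.

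Of 19 endothelial markers 4 passed lower and none higher (median -0.52), and the summed level was 1129 CPM against 1749 in Large White and 1504 in Enshi black. STAB1, a scavenger receptor of sinusoidal cells, had 168 CPM in Chinese wild boar, 499 in Large White and 186 in Enshi black, or 2.97-fold (2.85 to 3.09) lower. FLT4, the receptor of lymphatic growth factors that sinusoids also carry, had 40.6 CPM in Chinese wild boar, 90.8 in Large White and 77.5 in Enshi black, or 2.24-fold (2.06 to 2.43) lower. F8 and FCN2, given above with coagulation and complement, are counted in this list too. The pan-endothelial PECAM1 and the sinusoidal and lymphatic LYVE1 had 108 and 95.6 CPM and 48.5 and 29.5 CPM in Chinese wild boar and Large White, and neither passed. The endothelial markers thus had values on both sides of equality.

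Stellate cell and fibroblast markers leaned the other way. Of 31 compared, 3 passed higher and none lower (median 0.57). The collagen chain COL1A2 had 88.7 CPM in Chinese wild boar, 32.2 in Large White and 114 in Enshi black, or 2.76-fold (2.52 to 3.02) higher, LOX, which cross-links collagen and elastin, had 6.87 CPM in Chinese wild boar, 1.38 in Large White and 13.9 in Enshi black, or 4.97-fold (3.27 to 7.82) higher, and elastin (ELN) had 10.7 CPM in Chinese wild boar, 3.38 in Large White and 5.24 in Enshi black, or 3.17-fold (2.4 to 4.25) higher. For COL1A2 and LOX the order was Large White lowest and Enshi black highest. COL3A1 and PDGFRB, a marker of the cell type itself, had 383 and 232 CPM and 18.6 and 18 CPM in Chinese wild boar and Large White and did not pass. In the wider list of 84 matrix, integrin and protease genes 4 passed higher and 7 lower (median -0.07). TNC, a matrix protein of wound repair, had 11.3 CPM in Chinese wild boar, 2.51 in Large White and 14.5 in Enshi black, and COL6A5 37.1 CPM in Chinese wild boar, 10.8 in Large White and 31.8 in Enshi black, or 3.44-fold (2.95 to 4.03) higher. The proteoglycan VCAN had 1.67 CPM in Chinese wild boar, 7.11 in Large White and 4.4 in Enshi black, or 4.27-fold (2.9 to 6.44) lower.

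Bile duct and red cell markers gave few passing genes. Of 22 cholangiocyte and epithelial genes, VIL1 passed higher and ELF3 lower (median 0.11), and the defining marker EPCAM had 54 counts in Chinese wild boar and 47 in Large White. SOX9, a transcription factor of bile duct cells, had 51 counts in Chinese wild boar and 66 in Large White. The defining marker SPP1 had 178 counts in Chinese wild boar, 367 in Large White and 468 in Enshi black. None of 7 erythroid and platelet markers passed, and haemoglobin HBB had 182 CPM in Chinese wild boar, 102 in Large White and 36.5 in Enshi black. Of 13 neural and islet genes 2 passed higher (ABCC8 and GABRQ) and 2 lower (TENM4 and LUZP2).

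Genes of cell division did not differ past the size rule. None of 50 cell cycle and replication genes passed, with a median of 0.01, and tubulin TUBA1B had a ratio of 1.04 (0.979 to 1.1). Of 91 cilium and axoneme genes 1 passed higher and 3 lower (median -0.20), shares of 1.1% and 3.3% that lie below those of all compared genes. The higher one was CFAP43, a cilium and flagellum protein, with 81 counts in Chinese wild boar, 24 in Large White and 145 in Enshi black. The lower ones were dynein heavy chains: DNAH1 had 6.97 CPM in Chinese wild boar, 117 in Large White and 1.2 in Enshi black, or 16.8-fold lower, with a nearest bound of 14.1. DNAH2 had 13 counts in Chinese wild boar, 71 in Large White and 5 in Enshi black, and DNAH10 had 36 counts in Chinese wild boar, 111 in Large White and 25 in Enshi black. These 3 were highest in Large White, and CFAP43 in Enshi black. Of 46 genes of Wnt, Notch, Hedgehog and TGF-beta signalling, the Wnt antagonist SFRP1 passed higher, with 21.2 CPM in Chinese wild boar, 6.81 in Large White and 72.2 in Enshi black, and the Notch target HEY1 lower, with 1.06 CPM in Chinese wild boar, 4.15 in Large White and 1.99 in Enshi black. These shares, 2.17% each, also lie below those of all compared genes. Of 30 receptor kinase genes, FGF21 and the ephrin receptor EPHA7 passed higher, and EPHB6 and the growth factor PDGFA lower; PDGFA had 2.68 CPM in Chinese wild boar, 11.6 in Large White and 4.49 in Enshi black, or 4.34-fold (3.2 to 5.96) lower.

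All counts rest on 1 library a side. If animals of a breed are assumed to vary with a coefficient of 0.4 on top of counting error, 73 genes (0.568%) passed higher and 104 (0.809%) lower, instead of 388 and 492. Then 1 PPARA target, 2 dehydrogenases, 2 T and NK cell markers and 2 cytokine genes passed, and none of the immediate early, p53, ribosomal, Kupffer, endothelial or stellate genes.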

How the data were processed

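The deposited tables give whole-number read counts per gene, not normalized, 1 table per library, per the file headers. Per the submitters' processing notes, the build was Sscrofa10.2, and the tools named are HTSeq 0.6.1, TopHat2 2.1.0 and edgeR 3.16.3. How strand and reads with several alignments were handled, and which annotation was used, is not given in the sources used here, so near copies, overlapping genes and antisense genes are uncertain. Besides 25322 gene IDs the tables hold 5 summary rows. Those rows stayed out of totals; reads on no feature made up 18.9% to 22.0% and ambiguous reads 1.89% to 2.49%. A symbol was found for 11804 IDs. No sequence of the build was at hand, so no sequences or coordinates are given.

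Counts were scaled with TMM factors (edgeR 4.0.16 in R 4.3.3) of 0.979 for Chinese wild boar, 0.978 for Large White and 1.04 for Enshi black. Ratios, exact conditional binomial (Clopper-Pearson) intervals of 95% and log2 folds with a prior count of 2 were computed with Python 3.11.15 and scipy 1.17.1. No molecular identifiers are described, so intervals and the floor of 3 counts cover counting error only. Without replicates no test or p-value was possible. The interval rule was run on simulated counts that held counting error only, so that run cannot speak to variation between animals.

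The members and the gene lists were chosen with earlier results of these data known. Named were the 15 genes per direction with the farthest bounds, the 12 passing genes per direction with the largest CPM differences, and up to 4 passing members per list and direction. Where no list member passed, up to 2 abundant members were named. The 10 most abundant genes, the 5 per direction just inside and just outside the size rule, and markers that define cell types were named too. Other genes, named without values as further passing members (SLC27A2, LDHA, HSD17B7, ADH4, AKR7A2, ALDH5A1), were chosen after their values were seen. A few named genes are left out of the text. Alternatives were total counts, DESeq2 1.42.0 size factors, TMM factors of the compared libraries alone, other filters, other bounds, a wider interval, an assumed variation between animals, and for list medians a prior count of 0.5.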

Additional observations from a re-analysis of the deposited data

How the results depend on the processing

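Scaling by DESeq2 size factors, total counts or TMM factors of the compared libraries alone, and no expression filter, kept the count of genes passing higher between 387 and 406 and lower between 490 and 517. Under a filter of 10 CPM 265 genes passed higher and 276 lower, of 7771 compared. With a bound of 1.5-fold 979 passed higher and 1135 lower, and with a bound of 4-fold 87 and 114. With a wider interval, of an error rate one fiftieth as large, 279 and 306 passed. If animals are assumed to vary with a coefficient of 0.2, 155 passed higher and 214 lower, and with 0.4 73 and 104. Scalings, filters and bounds leave the sign of a gene's fold nearly fixed by construction, so they test which genes pass rather than the direction. Of 48 lists with more passing genes on one side, the larger side changed in 0 with DESeq2 size factors or total counts, in 2 with the wider interval (nuclear receptors from 2 higher and 3 lower to 2 and 1, matrix genes from 4 and 7 to 4 and 3), in 4 with the assumed variation of 0.2 (mitochondrially encoded genes from 3 and 1 to 0 and 1, glutathione and redox genes from 2 and 1 to 0 and 1, complement from 1 and 3 to 1 and 0, protein glycosylation from 3 and 4 to 2 and 1), and in 2 with that of 0.4 (glucose metabolism from 5 and 3 to 1 and 2, lipoproteins and lipases from 2 and 1 to 0 and 1). Of 107 named genes that passed higher and 100 that passed lower, 107 and 98 also passed with DESeq2 size factors, 86 and 72 with the wider interval, and 19 and 29 with the assumed variation of 0.4. Under the other scalings and a prior count of 0.5 69 list medians moved by less than the median counting error of their members, and under the filter of 10 CPM 59 did and 7 did not. The scalings shift all folds by nearly the same small amount, so for them this result was nearly fixed in advance. No paired analysis was possible because each group has 1 library. The depth sets a floor of 0.152 CPM in Chinese wild boar and 0.154 CPM in Large White, below which a level cannot be told from 0.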

Other observations

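Some passing genes belong to no group described so far. Of the genes past the size rule, 164 higher and 198 lower ones have no symbol matched to their gene ID and are not named here. Among 43 actin, microvillus and junction genes VIL1 alone passed (median -0.01).

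Several genes lay just outside the size rule. On the higher side these included PRDX4, a peroxiredoxin of the ER, with 127 CPM in Chinese wild boar, 59.5 in Large White and 169 in Enshi black, and PSME2, a subunit of the proteasome activator that interferon induces, with 81.7 CPM in Chinese wild boar, 37.6 in Large White and 62.9 in Enshi black. KCNN2, a potassium channel opened by calcium, had 173 CPM in Chinese wild boar, 82 in Large White and 98.8 in Enshi black. On the lower side were ACVRL1, an endothelial receptor of bone morphogenetic proteins, with 15.4 CPM in Chinese wild boar, 35.2 in Large White and 25.5 in Enshi black, the lipid transporter ABCA7, with 5.16 CPM in Chinese wild boar, 12.9 in Large White and 6.95 in Enshi black, and the erythropoietin receptor EPOR, with 17 counts in Chinese wild boar, 58 in Large White and 48 in Enshi black. Their intervals reached to within 2-fold of equality, and with 1 library a side none was tested.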
